A study of Homo sapiens with 4 samples.

Results

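The matrix metalloproteinases MMP1, MMP2, MMP3, MMP7, MMP9 and MMP14 and their tissue inhibitors TIMP1, TIMP2 and TIMP3 were followed in the human glioma line U87MG, an established cell line. A probe set is a group of probes read as 1 signal. The genes were found as every probe set whose platform annotation gives exactly 1 gene symbol that is 1 of these 9. This gave 24 probe sets of the 49293 on the array, 16 for MMPs and 8 for TIMPs. The first group was U87MG cells transfected with PC-490, a vector from which the microRNA miR-490 is overexpressed. The other was U87MG cells transfected with its control vector, PCDNA3.1 (+). RNA was collected 48 h after transfection in both groups, and 2 PrimeView arrays were run per group. The labels do not say whether replicates came from separate cultures, so the spread between them may be technical. Both groups were transfected, so there is no untransfected level to set beside either group. The level of miR-490 itself was not analysed here.

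MMPs are zinc-dependent proteases that cut collagens, laminins, proteoglycans and other proteins of the extracellular matrix, and most are secreted as inactive proenzymes. TIMPs bind the active site and block it, so the proteolysis around a cell depends on both sides, on other proteases that cut the proenzymes, and on how strongly each gene is transcribed. In glioma, MMPs are studied for their part in invasion through brain tissue. A microRNA pairs with messenger RNAs mainly through its seed, bases 2 to 8.

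The miR-490 hairpin has the following 2 mature strands, shown as the microRNA of the PC-490 vector, and their levels in these cells were not analysed. Both lie on the plus strand of chromosome 7 (RefSeq, GRCh38.p14), the 5p strand at chr7:136903205-136903224 and the 3p strand at chr7:136903242-136903263. Capitals mark the seed, which differs between the strands.
hsa-miR-490-5p: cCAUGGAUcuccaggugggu
hsa-miR-490-3p: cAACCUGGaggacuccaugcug

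Of the 9 genes, 4 (MMP7, MMP14, TIMP1 and TIMP3) had an entry in the RefSeq promoter table of GRCh38.p14, which covers 250 bases before to 50 after each gene's start. Of these 4 genes, only MMP7 had its brightest probe set (highest mean signal) more than 0.1 log2 units from the control mean. Its promoter is therefore shown. It lies on the minus strand at chr11:102530748-102530997, and capitals mark the letters that match an AP-1 motif and a TATA box.
MMP7: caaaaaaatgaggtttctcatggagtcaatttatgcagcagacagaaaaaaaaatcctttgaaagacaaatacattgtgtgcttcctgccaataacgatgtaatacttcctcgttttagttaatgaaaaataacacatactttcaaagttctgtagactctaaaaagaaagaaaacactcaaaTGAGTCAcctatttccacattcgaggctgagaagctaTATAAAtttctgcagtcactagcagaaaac
The AP-1 letters TGANTCA, bound by FOS and JUN proteins, matched from -67 to -61 relative to the start, and the TATA letters TATAAA from -30 to -25. The ETS letters AGGAAG matched in MMP7 from -169 to -164 and from -145 to -140, both on the opposite strand, and in TIMP1 from -87 to -82. MMP14 and TIMP3 had no match to any of these 3 motifs. Both strands were searched, no matches overlapped, and the AP-1 letters stood in 7.71% of all 35116 promoters, the TATA letters in 11.5% and the ETS letters in 33.6%. These matches are descriptions of sequence and not shown to be sites that any factor used in these cells.

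Across the whole array, log2 differences (miR-490 minus control) ran from -0.675 to 0.67. Array medians lay between 5.15 and 5.17 log2 units, but the deposited values had been processed to equalise the arrays, so this does not compare the groups. Pairs of arrays correlated at r = 0.9975 to 0.9979 over probe sets. The lowest r was that of the 2 control arrays, so arrays of a group were not more alike throughout than arrays of different groups. In limma fitted to all 49293 probe sets with Benjamini-Hochberg adjustment, 0 probe sets (0.0%) reached an adjusted p under 0.05 with a lowest adjusted p of 0.9, while 1313 higher (2.66%) and 1224 lower (2.48%) had an unadjusted p under 0.05. An exact two-sided permutation test of a single gene cannot give a p below 0.333 with 2 arrays in each group. Of the markers of the labelled cell type, VIM, CD44 and GFAP lay above the array median, and S100B, OLIG2, SOX2 and NES below it. Most of the other GFAP sets also lay below it. All 4 epithelial markers lay below the median, and so did 6 of 7 leukocyte markers, among them PTPRC. Above it lay 3 of 4 mesenchymal markers, 2 of 4 endothelial markers (VWF and KDR) and 1 of 3 neuron markers (SNAP25). Every other set of VWF and of KDR lay below the median.

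The comparison asks how these proteases and inhibitors differ when miR-490 is overexpressed. The genes were chosen in part on the log2 differences of this same contrast, in which MMP3 and MMP7 stood among the lower genes, so their values are given as a description with no test. With each gene represented by its brightest probe set (highest mean signal), MMP3, MMP7, MMP9 and MMP1 had 0.747 to 0.832 times the control level with miR-490, while MMP2, MMP14 and the 3 TIMPs had 0.949 to 1.05 times. Of the 9 genes, 7 had a lower mean with miR-490 (47.3% of all 18132 genes did so). In 6 of the 9 genes both miR-490 arrays lay below both control arrays (16.1% of all genes), and in 0 both lay above (16.5% of all genes). The median log2 difference was -0.075 over the 9 genes and 0.005 over all genes. Without control replicate 1 the median of the 9 was -0.195, and without control replicate 2 it was -0.055. Of the 24 probe sets 17 had a lower mean, against 47.8% of all probe sets. Both miR-490 arrays lay below both control arrays in 8 of the 24 and above in 1, where each pattern held for 15.6% of all probe sets. Nothing is read from these counts, since the contrast helped to choose the genes.

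**Figure D1:**
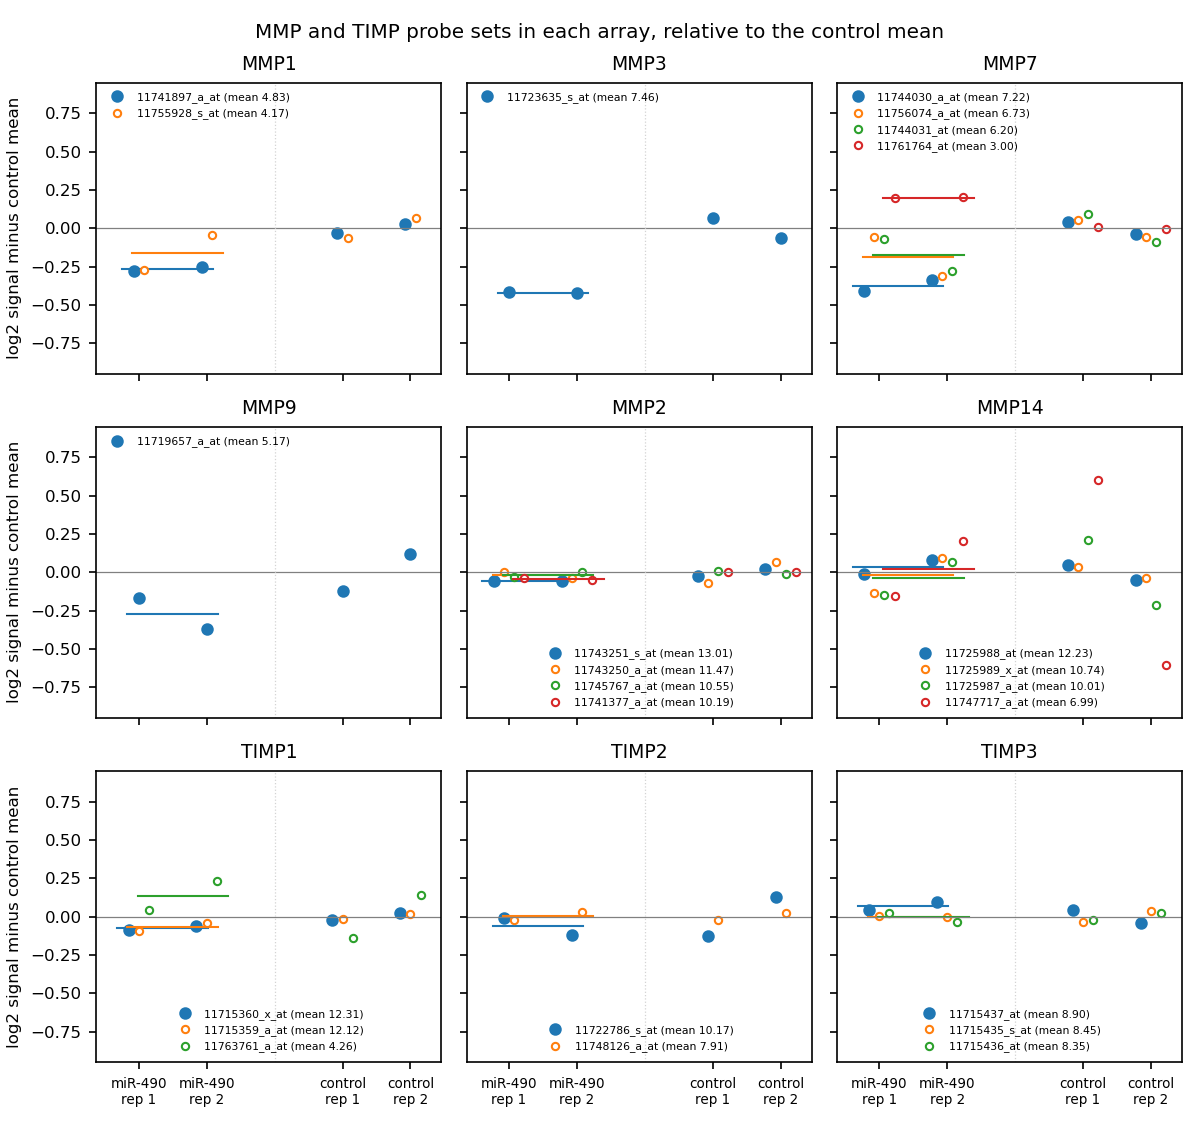
Log2 signal of every MMP and TIMP probe set in each array, minus the mean of the control arrays for that probe set; filled points are the probe set used for the gene, open points the others, and horizontal lines the miR-490 mean. The filled points of MMP1, MMP3, MMP7 and MMP9 lie below both control arrays, while 1 dim MMP7 probe set lies above them and the MMP14 probe set with a mean of 6.99 is spread widely between the control arrays.

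MMP1 is the interstitial collagenase, which makes the first cut in fibrillar collagen. Its brighter probe set (11741897_a_at) read 4.68 and 4.71 log2 units in the miR-490 arrays, against 4.93 and 4.99 in the control arrays. The groups did not overlap, the difference was -0.265, or 0.832 times the control level, and it was larger than the replicate gaps of 0.03 and 0.06. The second probe set read 3.98 and 4.21 with miR-490, against 4.19 and 4.32 in controls, and there the groups overlapped. Both sets of MMP1 lay below the array median of 5.16.

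MMP3 is a stromelysin, which degrades proteoglycans and laminin and can activate other proMMPs, among them proMMP1 and proMMP9. Its only probe set (11723635_s_at) read 7.25 and 7.24 in the miR-490 arrays, against 7.73 and 7.6 in the control arrays. The miR-490 arrays were nearly equal and both lay at least 0.35 below the lower control array. The mean was 7.25 ± 0.00707 with miR-490 and 7.67 ± 0.0919 in controls (SD, n = 2 each), a difference of -0.42, the lowest of the 24 probe sets. The middle 95% of all probe sets lay between -0.24 and 0.25, but nothing is read from this, since the contrast helped to choose MMP3. The suffix of this set marks probes that may match more than 1 transcript, and there was no other MMP3 set to set against it. The brightest sets of MMP2 and TIMP2 and the dimmer set of MMP1 carry the same suffix.

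MMP7, matrilysin, is a small MMP without the hemopexin domain that most of the family carries, and it sheds cell surface proteins as well as cutting matrix. Its brightest probe set (11744030_a_at) read 7.0 and 7.07 with miR-490, against 7.45 and 7.37 in controls. Here too the groups were apart, by 0.30 at the closest, with a difference of -0.375, or 0.771 times. The other MMP7 sets did not all share this. Set 11756074_a_at read 6.77 and 6.51 with miR-490, against 6.88 and 6.77 in controls, so that the groups touched, and set 11744031_at read 6.22 and 6.01, against 6.38 and 6.2, with overlap. The differences of these sets were -0.185 and -0.175, smaller than their gaps of 0.26 and 0.21 between the miR-490 arrays. The dimmest set (11761764_at) lay the other way, at 3.10 and 3.11 with miR-490 and 2.91 and 2.90 in controls, a difference of 0.20. Averaged over its 4 sets, MMP7 had a difference of -0.134.

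MMP9 and MMP2 are the gelatinases, which cut denatured collagen and basement membrane collagen. MMP9, the one induced by cytokines, read 5.14 and 4.94 with miR-490, against 5.19 and 5.43 in controls, on its only probe set. The miR-490 arrays were the lower in each pairing, but by only 0.05 at the closest, and the replicate gaps of 0.20 and 0.24 were nearly as wide as the difference of -0.27. Without control replicate 2 the difference was -0.15, and without control replicate 1 it was -0.39. Its mean of 5.17 was close to the array median.

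MMP2, a gelatinase that many mesenchymal cells express without stimulation, had 4 probe sets, all above the array median and all within 0.055 of the control mean. The brightest (11743251_s_at) read 12.98 in both miR-490 arrays, against 13.01 and 13.06 in controls. The groups were apart by 0.03 in this set and by 0.04 in set 11741377_a_at, and they overlapped in the other two sets. The differences ran from -0.055 to -0.015, which is 0.963 to 0.990 times the control level.

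MMP14 is anchored in the cell membrane and activates proMMP2 at the cell surface, in a complex in which TIMP2 serves as the bridge. Its brightest set (11725988_at) read 12.20 and 12.29 with miR-490, against 12.26 and 12.16 in controls. The groups overlapped in this set and in the other 3, and the differences ran from -0.04 to 0.035. The set 11747717_a_at read 6.82 and 7.18 with miR-490, against 7.58 and 6.37 in controls. That control gap of 1.21 log2 units was matched or exceeded in 4 of all 49293 probe sets, and the difference of 0.025 between groups rests on it. The set 11725987_a_at had the same order of arrays, with 9.88 and 10.10 with miR-490, against 10.24 and 9.82 in controls, whereas the brightest set had a control gap of 0.10.

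**Figure D2:**
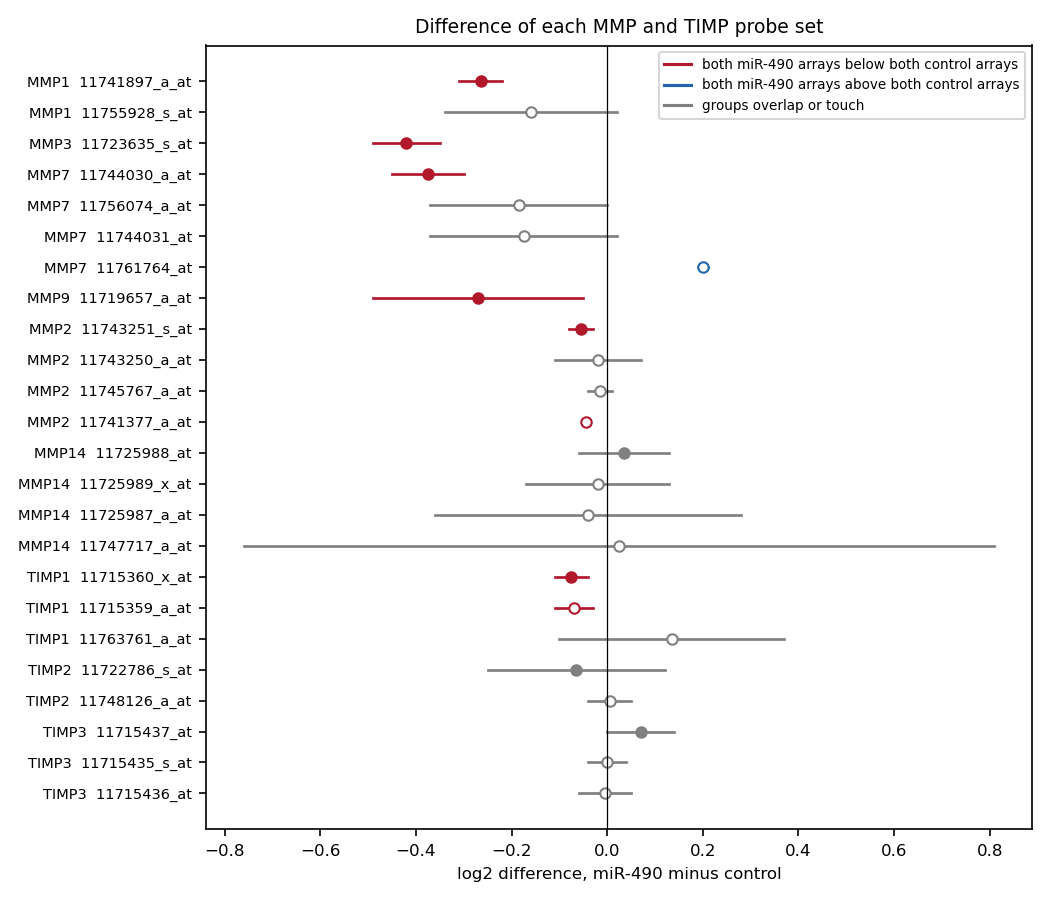
Difference of the group means (points, miR-490 minus control, log2) for each of the 24 probe sets; lines span the lowest to the highest of the 4 differences between single arrays, and filled points mark the set used for the gene. Lines that stay left of 0 belong to MMP1, MMP3, MMP7, MMP9, MMP2 and TIMP1, and those of MMP2 and TIMP1 end within 0.04 of it, as the line of MMP9 ends at -0.05.

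TIMP1 binds proMMP9 as well as active MMPs. Its brightest set (11715360_x_at) read 12.26 and 12.29 with miR-490, against 12.33 and 12.37 in controls. The miR-490 arrays were lower by 0.04 at the closest, with a difference of -0.075, or 0.949 times. Set 11715359_a_at had a difference of -0.07 without overlap, and the dim set 11763761_a_at, with a mean of 4.26, had 0.135 with overlap.

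TIMP2 inhibits MMP2 and, at low amounts, helps MMP14 to activate it. Its brighter set (11722786_s_at) read 10.19 and 10.08 with miR-490, against 10.07 and 10.33 in controls. The groups overlapped, the control gap of 0.26 was wider than the difference of -0.065, and the sign depended on the array: without control replicate 2 the difference was 0.065. The second set read 7.89 and 7.94 with miR-490, against 7.89 and 7.93 in controls.

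TIMP3 binds to the matrix and also inhibits ADAM17, the protease that releases TNF. Its brightest set (11715437_at) read 8.91 and 8.96 with miR-490, against 8.91 and 8.82 in controls, so that the groups touched at 8.91. The other two sets had differences of 0.0 and -0.005. Over the 8 TIMP probe sets, 7 had a difference under 0.1 in size, as 64.2% of all probe sets did.

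MMP7, MMP1 and MMP3 lie in a run of 9 neighbouring MMP genes on chromosome 11, in the order MMP7, MMP20, MMP27, MMP8, MMP10, MMP1, MMP3, MMP12, MMP13 in RefSeq. The run was looked at after the values of its members had been seen. The other 6 genes of the run all lay below the array median. Of these, MMP8, the neutrophil collagenase, read 3.05 and 2.99 with miR-490, against 3.38 and 3.60 in controls, a difference of -0.47 without overlap. Its 3 other probe sets had differences of -0.17 to 0.09, so that the sets of MMP8 do not share a direction. MMP10, a stromelysin close to MMP3 in sequence, read 2.65 and 2.48 with miR-490, against 2.51 and 2.60 in controls, and MMP13, another collagenase, read 4.71 and 4.85, against 4.93 and 4.53. These groups overlapped, as did those of MMP20, MMP27 and MMP12.

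**Figure D3:**
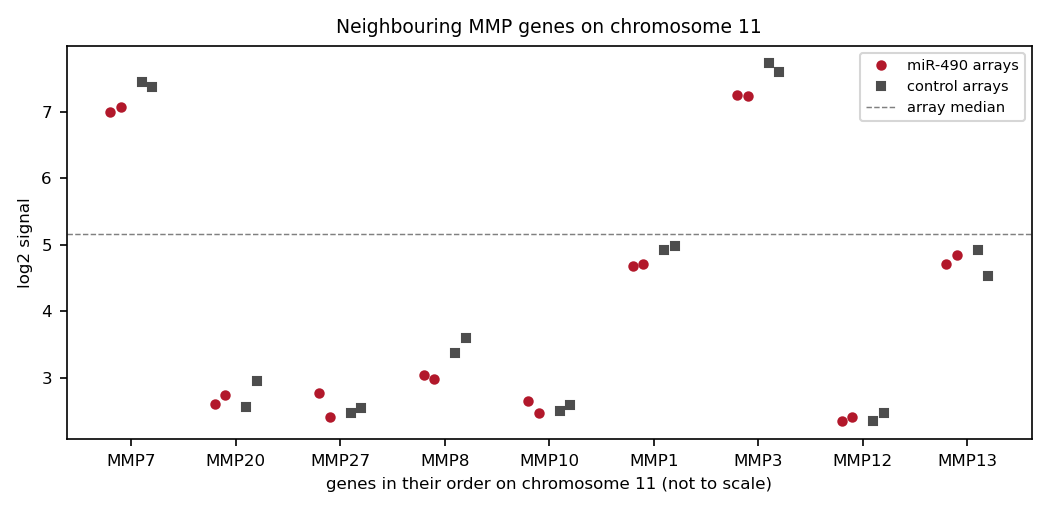
Log2 signal of the 9 neighbouring MMP genes on chromosome 11 in each array, 1 probe set per gene, with miR-490 arrays left of control arrays. MMP7 and MMP3 lie above the array median (dashed) and the other 7 below it, and the groups are apart in MMP7, MMP8, MMP1 and MMP3; levels of different genes are not comparable on this scale.

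The rest of the pathway was counted in 5 lists, with 94 of 97 genes measured, again with 1 probe set per gene. These lists were also chosen with earlier results of these data known, so nothing is read from their counts. In none of the lists did any gene pass the adjusted threshold in either direction (limma, adjusted over 49293 probe sets). Of 29 other metalloproteinases, 13 had lower means, beside 47.3% of all genes, and 16 had higher means, with a median of 0.015. Of these, 5 lay below controls without overlap and 2 above, beside 16.1% and 16.5% of all genes. At an unadjusted p under 0.05, 0 were higher and 2 lower, where 2.57% and 2.2% of all genes were. ADAMTS1, which cuts proteoglycans, read 8.72 and 8.66 with miR-490, against 8.86 and 8.90 in controls (difference -0.19). MMP28 read 5.61 and 5.77 with miR-490, against 5.42 and 5.59 in controls (difference 0.185). The other set of ADAMTS1 had -0.085 and that of MMP28 0.24. MMP17 had a difference of -0.13. MMP19 had -0.14, with -0.15 to 0.145 in its 4 other sets, ADAM19 had 0.125, with -0.12 to 0.065 in 3 others, and ADAM10 had -0.11, with -0.085 to -0.005 in 3 others.

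Other inhibitors and clearance proteins had 8 of 10 means lower, beside 47.3% of all genes, with a median of -0.115. Without overlap, 4 lay below controls and 0 above, beside 16.1% and 16.5% of all genes. At an unadjusted p under 0.05, 0 were higher and 1 lower, beside 2.57% and 2.2% of all genes. THBS2, a matrix protein that helps cells to take up MMP2, read 7.21 and 7.25 with miR-490, against 7.56 and 7.44 in controls (difference -0.27), and its 2 other sets had -0.2 and -0.1. TIMP4 read 8.22 and 8.14, against 8.34 in both control arrays (difference -0.16). RECK, a membrane-anchored MMP inhibitor, read 5.93 and 5.72, against 5.97 and 6.08 (difference -0.20), while its 2 other sets had 0.03 and 0.065. SPOCK1 and COL18A1 each had a difference of -0.115, but the other, dim set of COL18A1 had 0.2. LRP1, the receptor that clears MMPs with their inhibitors, had 0.06, with -0.06 to 0.095 in its 3 other sets.

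Activators of proMMPs and the plasminogen system had 14 of 16 measured means lower, beside 47.3% of all genes, with a median of -0.102. Without overlap, 10 lay below controls and 1 above, beside 16.1% and 16.5% of all genes. At an unadjusted p under 0.05, 0 were higher and 1 lower, beside 2.57% and 2.2% of all genes. PLAT, the tissue plasminogen activator, read 7.80 and 7.89 with miR-490, against 8.06 and 8.05 in controls (difference -0.21), and its 6 other sets had -0.335 to -0.12. PLAUR, the urokinase receptor, read 10.08 and 10.17, against 10.28 and 10.23 (difference -0.13), and its 4 other sets had -0.165 to -0.035. CD44, which can hold MMP9 at the cell surface, had -0.16, with -0.135 to 0.06 in its 9 other sets. The MMP inducer BSG had -0.11, but its 5 other sets had 0.0 to 0.035 and none was lower. HPSE, a heparan sulfate endoglycosidase, had -0.105 and -0.05 in its other set. PCSK5, a proprotein convertase, had 0.13 and -0.035 in its other set.

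Regulators and inducers of MMP genes lay on both sides, with 13 of 23 means lower, beside 47.3% of all genes, and 10 higher. Their median was -0.01, and 8 lay below controls without overlap and 5 above, beside 16.1% and 16.5% of all genes. At an unadjusted p under 0.05, 2 of the 23 were higher and 3 lower, beside 2.57% and 2.2% of all genes. IL1B, a cytokine that induces MMP1, MMP3 and MMP9 in many cells, read 9.29 and 9.27 with miR-490, against 9.67 and 9.68 in controls (difference -0.395). IL6 read 8.82 and 8.80, against 9.26 and 9.17 (difference -0.405), but its other, dim set had -0.065. FOS, a subunit of AP-1, read 6.46 and 6.53, against 6.12 and 6.19 (difference 0.34), and its 3 other sets had 0.48 to 0.67. The other FOS and JUN genes of the list had differences from -0.16 (FOSL1) to 0.08 (FOSB and JUNB), and JUN had -0.01. The 5 other sets of FOSL1 had -0.14 to -0.06, and the other set of FOSB had 0.21. EGR1 read 7.37 and 7.31, against 6.87 and 7.0 (difference 0.405), with other sets from -0.095 to 0.59. Of the ETS factors, ETS2 had a difference of 0.245 and 0.175 in its other set. ETS1 had -0.23, but its 2 other sets, both below the array median, had 0.075 and -0.01. ETV4 had -0.055 and -0.19 in its other set. ETV5 had -0.095, with -0.315 to 0.015 in its 3 other sets. None of these passed the adjusted threshold, with a lowest adjusted p of 0.9 over all probe sets (limma).

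Matrix substrates had 9 of 16 measured means lower, beside 47.3% of all genes, and a median of -0.018. Here 4 lay below controls without overlap and 1 above, beside 16.1% and 16.5% of all genes. At an unadjusted p under 0.05, 0 were higher and 1 lower, beside 2.57% and 2.2% of all genes. DCN, the proteoglycan decorin, read 5.90 and 5.89 with miR-490, against 6.20 and 6.12 in controls (difference -0.265), and its 3 other sets had -0.43 to -0.08. COL5A1 had a difference of -0.155, with -0.17 to -0.09 in its 3 other sets, and SPP1 had -0.08, with -0.155 to -0.03 in 5 others. The sets of 3 genes lay on both sides: COL1A2 had -0.10 and -0.165 to 0.005 in 5 others, LAMC1 had -0.05 and -0.125 to 0.35 in 4 others, and VCAN had 0.115 and -0.2 to 0.18 in 8 others.

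**Figure D4:**
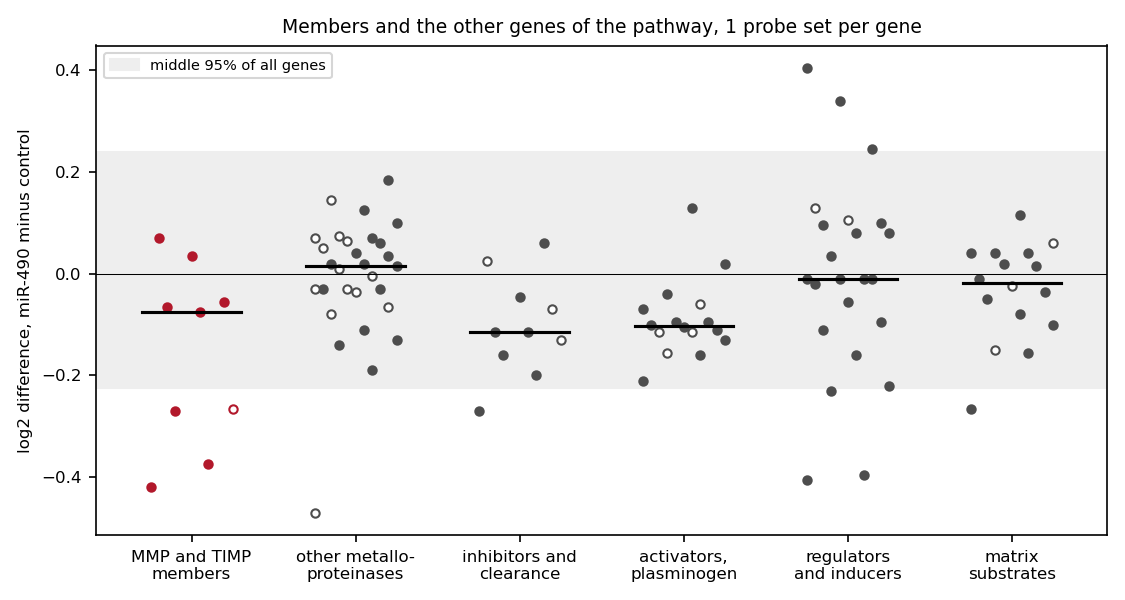
Log2 difference (miR-490 minus control) of each gene, 1 probe set per gene, for the MMP and TIMP members and for 5 lists of related genes; filled points lie above the array median, open points below it, black bars are list medians, and the grey band holds the middle 95% of all genes (-0.225 to 0.24). MMP1, MMP3, MMP7 and MMP9 lie below the band and the other 5 members inside it, while regulators lie on both sides of it. MMP8, THBS2 and DCN of the other lists lie below it too. The members were chosen in part on these differences, so their place beside the band is a description.

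Of 7 leukocyte markers, which would show immune cells as a source of MMPs and cytokines, 6 lay below the array median in the mean of all arrays. CSF1R, a receptor of macrophages and microglia, lay above it, at 6.39 and 6.53 with miR-490 and 6.37 and 6.58 in controls, and was the largest part of the list's summed signal. That sum was 140.0 and 151 in the miR-490 arrays, against 143 and 161 in the control arrays on the linear scale, with overlap and a median log2 difference of -0.135. PTPRC, which defines leukocytes, read 2.43 and 2.48 with miR-490, against 2.62 and 2.61 in controls, while 4 of its 5 other sets were higher with miR-490 (-0.11 to 0.205). All 4 other sets of AIF1 were higher too (0.085 to 0.39), whereas the set used had -0.125. Every set of PTPRC and of AIF1 lay below the array median. The part of immune cells in the MMP values was not tested.

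Among 10203 other genes above the array median, those with the pattern over the 4 arrays nearest to MMP3 were IL6, CXCL8, CXCL3, PSAT1 and RFTN1, at root mean square distances of 0.0164 to 0.0396 log2 units after each gene was centred on its mean. CXCL8 read 10.48 and 10.51 with miR-490, against 10.99 and 10.92 in controls. Nearest to MMP7 were RFTN1, PSAT1, IL6, CCL5 and LUM, at 0.0166 to 0.0438, and 3 of these genes stand in both lists. LUM, the proteoglycan lumican, read 7.80 and 7.87 with miR-490, against 8.18 and 8.07 in controls. Each gene was matched on its brightest set only. The other, dim set of IL6 had a difference of -0.065, against -0.405 in the set used. With 4 arrays, nearness is a description of levels and does not show shared control.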

How the data were processed

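Total RNA of U87MG cells (100 ng) was labelled with biotin and hybridised to PrimeView arrays, per the labels' protocols. The deposited values are log2 signals, 1 per probe set and array, which the submitters' processing notes say were computed with RMA. This method corrects background, equalises the distributions of the arrays and summarises the probes of a set, so a shift shared by most transcripts cannot be seen. Software, version and settings of that step were not given in the sources used here. No scan dates were used, so batches were not tested.

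Of 49293 probe sets, 44988 were annotated with 1 gene symbol, 1832 with several and 2473 with none. Symbols were updated by Entrez ID through RefSeq for 44961 of them, giving 18132 genes. The members and lists were chosen with earlier results of these data known, and every probe set of the 9 members was kept. The brightest probe set, by its mean over all arrays, stood for a gene. Up to 6 genes per list were named, those above the array median with the largest difference, and the 5 genes nearest to MMP3 and to MMP7. Values of other FOS, JUN and ETS genes were given beside the named regulators. Of the listed pathway genes, 3 were not analysed here.

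Groups and replicate numbers came from the sample titles. All probe sets were fitted with limma 3.58.1 in R 4.3.3 (lmFit and eBayes, two-sided, no trend, no block; 2 residual and 2.73 prior degrees of freedom) and p-values were adjusted by Benjamini-Hochberg, with calls at 0.05. Members were given no test. Precision is limited by the number of arrays, with a median standard error of 0.0842 for a log2 difference. On simulated arrays of 49293 probe sets for this comparison, the fit recovered 0.0% of probe sets raised by a log2 value of 0.5. It recovered 40.4% at 1 and 91.2% at 2, and made 4 false calls in the median of 5 runs. Each run held 50 probe sets raised by each of 0.25, 0.5, 1 and 2, so recovery at a size depends on the others. The measured differences ran only from -0.675 to 0.67. Same-numbered arrays did not deviate together (correlation -0.0844 over probe sets). Alternatives were quantile normalisation, centred array medians, an intensity trend, that trend plus a robust prior, bright probe sets only, 1 probe set per gene, averaged probe sets of a gene, each replicate left out and the replicate number as a block. Figures were drawn with matplotlib 3.10.9.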

Additional observations from a re-analysis of the deposited data

How the results depend on the processing

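In each alternative run 0 probe sets passed the adjusted threshold. The lowest adjusted p lay between 0.335 (intensity trend, robust prior) and 0.934 (without miR-490 replicate 2). At an unadjusted p under 0.05 there were 2537 probe sets as reported, of which 1313 were higher, and 1679 to 3048 with 1 array left out. On quantile-normalised values 1170 were higher and 1379 lower, and with an intensity trend 995 and 1325. With the replicate number as a block 0 passed and 1936 had an unadjusted p under 0.05, and the block changed no call; the labels do not say that a number marks a shared batch. Of the 9 member genes, 7 had a lower mean as reported and 7 or 8 in the alternatives that used all 9; of the 8 above the array median, 6 did. The median log2 difference of the 9 genes, -0.075 as reported, lay between -0.195 (without control replicate 1) and -0.055 with 1 array left out. It was -0.034 when the probe sets of a gene were averaged, -0.062 on quantile-normalised values and -0.085 with centred medians. The limma fits with 1 array left out take the lone array to vary like the other group. Of 63 alternatives for single members, 3 had the other sign: MMP14 without control replicate 2 (-0.015) or miR-490 replicate 2 (-0.01), and TIMP2 without control replicate 2 (0.065). MMP3 stayed between -0.485 and -0.355, MMP9 between -0.39 and -0.15. No detection calls were used, so which dim probe sets lay above background is not known here.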
